A study of Mus musculus with 12 samples.

Results

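The 78 genes that encode numbered proteins of the mitochondrial ribosome were followed in mouse gastrocnemius muscle. They comprise 49 genes of the large subunit, with symbols that begin with Mrpl and a digit, and 29 genes of the small subunit, with symbols that begin with Mrps and a digit. They were taken by symbol alone from the 10475 genes of the deposited table of transcript abundances, and no expression value entered the choice. GENCODE M21 holds 78 protein-coding genes of this naming, and all 78 are in the table. The gastrocnemius is a calf muscle. Its polyadenylated RNA was sequenced from 4 groups, with 3 libraries each and 12 in all: transgenic (TG) mice at Zeitgeber time (ZT) 12, wild-type (WT) mice at ZT12, TG mice at ZT0 and WT mice at ZT0. TG mice overexpress E4BP4, a clock-linked transcriptional repressor encoded by Nfil3, in the liver. All mice were C57BL/6, 8 weeks old and fed chow in a cycle of 12 h light and 12 h dark, with lights on at ZT0 and off at ZT12. The promoter and the founder line of the transgene are not given in the sources used here. The labels do not say that each library came from a mouse of its own, so the p-values measure the spread between libraries, which may be technical.

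Mitochondrial ribosomes translate the few messenger RNAs of the mitochondrial genome, which encode core subunits of the oxidative phosphorylation complexes. Their RNA is made inside the organelle, whereas all of their proteins are encoded in the nucleus, translated in the cytosol and imported. The small subunit decodes the messenger, and the large subunit holds the peptidyl transferase centre and the exit tunnel. Skeletal muscle is rich in mitochondria and depends on this route for its respiratory chain.

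The files state no depth. Levels are in TPM (transcripts per 1000000, a level corrected for transcript length), and multiplied by length and by 1 factor per library they came out as whole reads. These summed, in units of 1000000 reads, to 12.94 to 15.49 in TG ZT12, 17.39 to 19.81 in WT ZT12, 10.19 to 11.27 in TG ZT0 and 9.05 to 12.85 in WT ZT0. Depth therefore differed with time, and at ZT12 also with genotype, and its part in the results was not tested. The 9 markers of skeletal muscle were all listed and summed to 108182 to 126901 TPM per library, while none of 6 liver and none of 3 neutrophil markers was listed. No listed gene was below 1.0 TPM in replicate 1 of WT ZT0, and genes under that level in that library were not analysed here. Muscle Nfil3 averaged 13.5 ± 6.65 TPM in TG and 11.8 ± 3.79 TPM in WT at ZT12, and 16 ± 3.72 TPM in TG and 17.2 ± 1.42 TPM in WT at ZT0 (SD, n = 3 each). Those 2 pairs of groups overlapped, and as the transgene acts in the liver these values do not check the genotype labels. The libraries that stood apart were WT ZT0 replicate 2, whose median correlation with the others was 0.946 against 0.975 to 0.985 for the rest, and TG ZT12 replicate 1, which had the lowest median TPM (4.96). In WT ZT0 replicate 2 the only listed lymphoid or immune marker of 7, Cd74, stood at 739 TPM, against 29.8 to 83.5 TPM elsewhere. Markers of other cell types moved with time or library as well. The 5 red cell markers summed to 2959, 4565 and 145 TPM in TG ZT12 and 1526, 4257 and 176 TPM in WT ZT12, against 110 to 156 TPM in TG ZT0 and 86.2 to 163 TPM in WT ZT0. The 4 Schwann cell markers summed to 14.3, 32.6 and 87.9 TPM in TG ZT12 and to 44.3 to 99.6 TPM in the other 9 libraries, and the 8 markers of slow and oxidative fibres to 957 to 1946 TPM in TG ZT12, 1648 to 2113 TPM in WT ZT12, 1407 to 1532 TPM in TG ZT0 and 1055 to 1493 TPM in WT ZT0. Their part in the results was not tested. In bulk tissue, fewer cells of a type and less RNA per cell cannot be told apart.

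Transcripts of the mitochondrial ribosome were mostly of moderate abundance, with means from 1.57 to 158 TPM. Over the 12 libraries the median member averaged 23.7 TPM, against 6.59 TPM for the median listed gene, 35.4 TPM for 76 proteins of the cytosolic ribosome and 225 TPM for 81 subunits of oxidative phosphorylation. The large subunit genes had a median of 27.9 TPM and the small subunit genes one of 19.7 TPM. Members with a bacterial relative (46 genes) had a median of 28.2 TPM and those found in mitochondria alone (32 genes) one of 19.2 TPM, on a grouping by known structure that was written after the values had been seen. Of the 78 members, 74 averaged at least 5 TPM and 77 reached at least 1 TPM in every library. Shorter transcripts had higher levels among the members (Spearman rho -0.57 over 78 genes) more than among all listed genes (rho -0.22 over 10475 genes), although TPM is already divided by length. These are correlations across genes of the same libraries, not across independent samples.

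**Figure D1:**
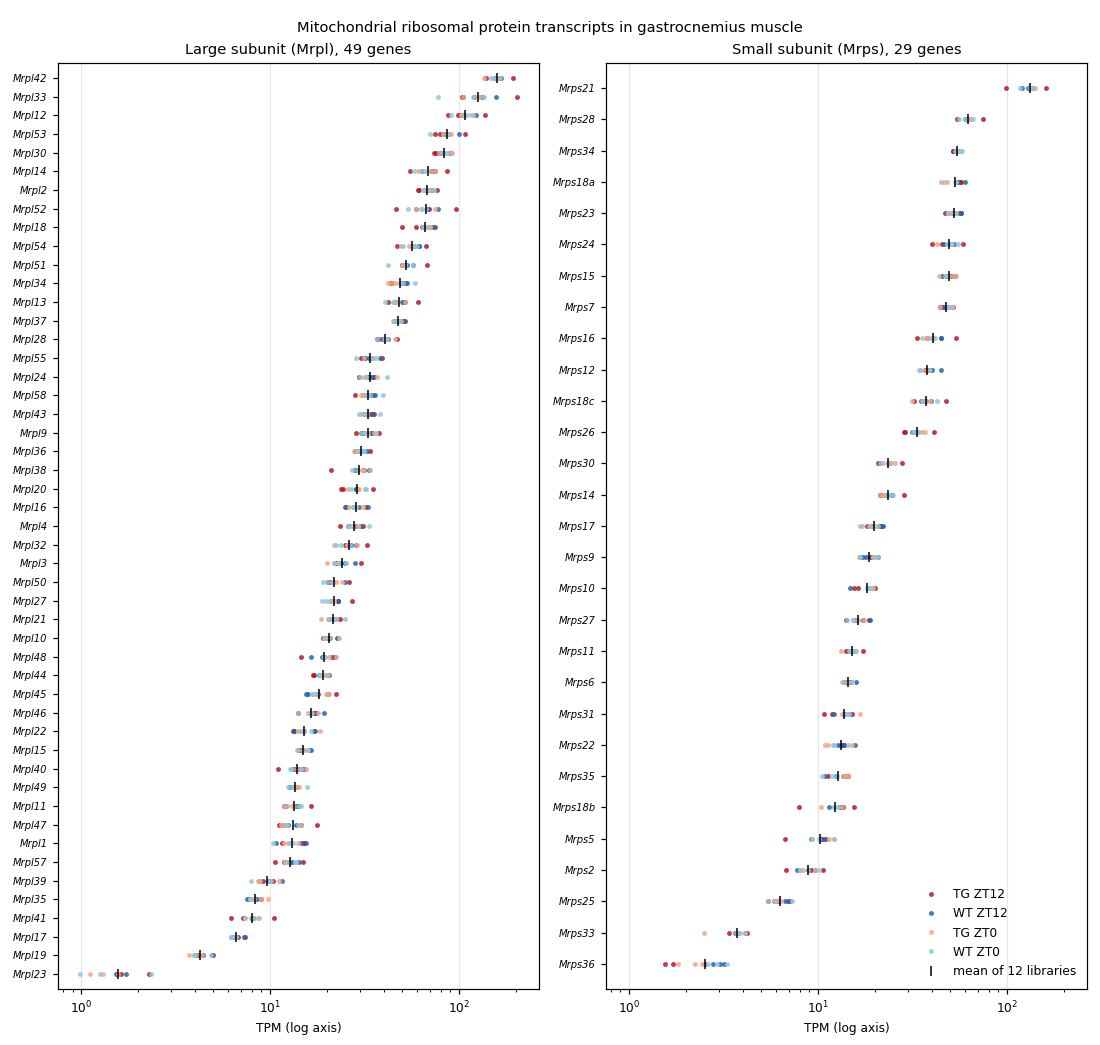
TPM (log axis) of the 49 large subunit genes (left) and the 29 small subunit genes (right) in each of the 12 libraries, ordered by mean level, with points coloured by group and a black tick at the mean. Levels run from 1.57 TPM for Mrpl23 to 158 TPM for Mrpl42, and the 12 points of most genes sit close together and mixed by group.

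Mrpl42, a protein of the large subunit with no bacterial relative, was the most abundant member. Its values were 192, 155 and 139 TPM in TG ZT12, 158, 165 and 167 TPM in WT ZT12, 159, 136 and 162 TPM in TG ZT0, and 154, 148 and 164 TPM in WT ZT0. The 4 groups overlapped, and the highest and the second lowest value both came from TG ZT12. Next in the large subunit were Mrpl33, at a mean of 126 TPM, and Mrpl12, a protein of the stalk that recruits translation factors and is also reported to bind the mitochondrial RNA polymerase, at 108 TPM. Mrpl12 had 108 ± 25.7 TPM in TG ZT12, 110 ± 11.3 in WT ZT12, 109 ± 7.94 in TG ZT0 and 105 ± 12.7 in WT ZT0 (SD, n = 3 each). In the small subunit Mrps21 led with 132 TPM (132 ± 31.0, 129 ± 8.08, 137 ± 3.54 and 130 ± 10.5 TPM in the same order of groups), followed by Mrps28 with 62.2 TPM and Mrps34 with 54.5 TPM. Mrps34 was also the steadiest member, between 51.6 and 58.2 TPM over all 12 libraries.

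At the other end stood Mrpl23, a homologue of the bacterial protein at the tunnel exit, with a mean of 1.57 TPM from 8 to 24 reads per library, and Mrps36, with 2.51 TPM from 16 to 53 reads. Mrpl19 (4.28 TPM), Mrpl17 (6.63 TPM), Mrps33 (3.73 TPM) and Mrps25 (6.27 TPM) were the other low members. Mrpl19, Mrpl17 and Mrps25 have long transcripts, of 4993, 6707 and 6059 bases, so their low TPM rested on 220 to 1091 reads. A near-identical copy can take or add reads: 26 members had a match of at least 100 bases at 95% identity or more in another GENCODE transcript, and in 7 of them it covered at least 50% of the transcript. Those 7 copies were all processed pseudogenes. Mrpl23 matched Mrpl23-ps1 at 100% identity over 85.9% of its transcript, and Mrpl22, Mrpl21, Mrps21, Mrpl42, Mrpl27 and Mrps10 matched theirs over 86.0%, 74.1%, 65.2%, 64.9%, 59.1% and 56.0%. Mrps36 had 4 such copies, the best over 44.1% of its transcript at 99.0% identity. How the authors counted reads that fit several places is not given in the sources used here, so the levels of these genes are uncertain.

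The symbols do not always give the place of a protein in the particle. Mrps30 and Mrps18a, named after the small subunit, sit in the large subunit in structures of the mammalian mitoribosome, and Mrps36 is known as a part of the 2-oxoglutarate dehydrogenase complex of the citric acid cycle. Mrps30 stood at 24.2 ± 3.46 TPM in TG ZT12, 22.8 ± 1.18 in WT ZT12, 24.0 ± 1.87 in TG ZT0 and 22.9 ± 1.25 in WT ZT0 (SD, n = 3 each). The 3 paralogs numbered 18 differed in level, with means over all libraries of 53.1 TPM for Mrps18a, 37.5 TPM for Mrps18c and 12.3 TPM for Mrps18b, and the values of the 3 genes did not meet in any library. Mrpl58, a peptidyl-tRNA hydrolase that rescues stalled ribosomes and was built into the large subunit, averaged 33.0 TPM. Mrpl18, an RNA-binding protein of the large subunit, averaged 66.0 TPM.

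Many members share a start region with a neighbour. In GENCODE M21 (mm10), 33 of the 78 members (42.3%) had a protein-coding gene in the head-to-head direction whose annotated start lay within 1000 bases, against 17.1% of the 9754 protein-coding genes of the table. In 23 of the 33 cases the neighbour was listed too. Mrpl36 faces Ndufs6 and Mrpl47 faces Ndufb5, both subunits of respiratory complex I, Mrps12 faces Sars2, the mitochondrial seryl-tRNA synthetase, and Mrpl43 faces Twnk, the mitochondrial DNA helicase. Levels within such a pair were often far apart: Mrpl36 averaged 30.1 TPM beside 184 TPM for Ndufs6, and Mrpl47 averaged 13.2 TPM beside 232 TPM for Ndufb5. Mrps11 and Mrpl46 are the only pair of 2 members, at 15.1 and 16.5 TPM, with log2 differences between TG and WT over both times of -0.02 (SE 0.08) and -0.02 (SE 0.09). Exons of 28 members overlap an exon on the opposite strand, and with the unstranded kit named in the labels such reads cannot be told apart.

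RefSeq promoters (GRCm38.p6, the mm10 assembly; 250 bases before to 50 after the start) were at hand for 69 of the 78 members. They were searched on both strands for 6 motifs known for genes of this kind or for E4BP4. The ETS motif CCGGAAG, bound by GABP, was in 37.7% of the 69, against 21.1% of the promoters of 7989 listed genes and 9.9% of all 27025. The NRF1 motif (GCGCA and GCGC with any base between) was in 18.8% against 12.4% and 5.2%, and the YY1 motif AAGATGGCG in 11.6% against 4.0% and 1.6%. The E-box CACGTG was in 7.2% against 12.3% and 8.1%. Neither the ERR motif TCAAGGTCA (0.3% of listed genes, 0.5% of all) nor the D-box TTANGTAA of E4BP4 (1.8% and 2.7%) was found in a member. A match or its lack describes the letters of the window and shows no binding. Mrpl13, Mrpl15, Mrpl19, Mrpl38, Mrpl4, Mrpl54, Mrps28, Mrps34 and Mrps35 were not searched.

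Printed here, with motif matches in capitals, are 180 bases (150 before the start and 30 from it, on the gene's strand) for abundant members that hold NRF1 or ETS motifs and for the members that come first in the comparisons below. The last line is the stretch between the divergent starts of Mrps11 (78783131, plus strand) and Mrpl46 (78783089, minus strand), 41 bases apart, with 30 transcribed bases on each side. The windows are chr11:120484487-120484666 (plus) for Mrpl12, chr3:95871485-95871664 (minus) for Mrps21, chr13:100744630-100744809 (minus) for Mrps36, chr8:71464776-71464955 (plus) for Mrpl34, chr17:46110854-46111033 (plus) for Mrps18a, chr11:94653641-94653820 (plus) for Mrpl27 and chr7:78783060-78783160 (plus) for the pair.
Mrpl12: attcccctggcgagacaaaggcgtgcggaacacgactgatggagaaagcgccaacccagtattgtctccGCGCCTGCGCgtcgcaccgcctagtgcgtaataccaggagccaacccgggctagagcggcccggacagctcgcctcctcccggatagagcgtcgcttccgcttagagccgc
Mrps21: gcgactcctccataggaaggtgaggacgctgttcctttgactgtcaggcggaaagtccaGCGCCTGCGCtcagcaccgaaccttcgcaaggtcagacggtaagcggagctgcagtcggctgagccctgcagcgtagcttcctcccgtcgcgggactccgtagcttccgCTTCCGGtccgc
Mrps36: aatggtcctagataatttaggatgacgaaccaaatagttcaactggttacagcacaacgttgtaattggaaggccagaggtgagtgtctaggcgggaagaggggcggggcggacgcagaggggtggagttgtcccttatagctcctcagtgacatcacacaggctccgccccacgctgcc
Mrpl34: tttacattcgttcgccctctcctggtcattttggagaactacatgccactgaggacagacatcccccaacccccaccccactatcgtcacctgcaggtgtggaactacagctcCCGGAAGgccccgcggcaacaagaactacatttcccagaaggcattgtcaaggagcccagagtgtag
Mrps18a: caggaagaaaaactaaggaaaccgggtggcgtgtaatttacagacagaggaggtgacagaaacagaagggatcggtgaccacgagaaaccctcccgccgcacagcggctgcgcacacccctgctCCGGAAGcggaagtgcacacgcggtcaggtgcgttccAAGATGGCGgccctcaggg
Mrpl27: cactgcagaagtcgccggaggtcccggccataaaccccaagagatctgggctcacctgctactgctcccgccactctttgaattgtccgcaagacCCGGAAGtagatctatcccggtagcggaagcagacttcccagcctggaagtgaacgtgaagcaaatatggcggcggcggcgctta
Mrps11 and Mrpl46: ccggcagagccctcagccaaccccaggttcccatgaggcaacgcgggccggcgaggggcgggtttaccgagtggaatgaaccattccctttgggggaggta
Mrpl12 holds an NRF1 match, Mrps21 an NRF1 and an ETS match, Mrpl34 and Mrpl27 an ETS match each, and Mrps18a an ETS and a YY1 match. Neither the Mrps36 bases nor the stretch printed for Mrps11 and Mrpl46 hold any of the 6 motifs. In the longer windows searched above, Mrps11 holds a YY1 match, while Mrpl46 and Mrps36 hold none.

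On the deposited TPM scale, the sums over each subunit were nearly the same in the 4 groups. Large subunit transcripts summed to 1801 ± 241 TPM in TG ZT12, 1851 ± 70.5 TPM in WT ZT12, 1775 ± 53.3 TPM in TG ZT0 and 1749 ± 63.8 TPM in WT ZT0 (SD, n = 3 each). Small subunit transcripts summed to 881 ± 78.3, 894 ± 25.1, 883 ± 9.29 and 873 ± 24.5 TPM in the same order of groups. All members together took 0.608 ± 0.0771% of the listed TPM in TG ZT12, 0.619 ± 0.0125% in WT ZT12, 0.611 ± 0.0206% in TG ZT0 and 0.598 ± 0.0321% in WT ZT0. The difference between any 2 group means was smaller than the spread within TG ZT12. The ratio of the large to the small subunit sum was 2.04, 2.07, 2.01 and 2.00 in TG ZT12, WT ZT12, TG ZT0 and WT ZT0, and lay between 1.94 and 2.14 in single libraries.

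On the deposited scale, members also varied little between libraries of a group. The median SD within groups, on the log2(TPM + 1) scale, was 0.14 for the members, against 0.24 for all tested genes, 0.22 for the 5928 genes between 5 and 200 TPM, 0.20 for oxidative phosphorylation subunits and 0.29 for cytosolic ribosomal proteins. In 74 of 78 members the highest library was less than 2 times the lowest. The exceptions were Mrpl33 (2.62 times), Mrpl23 (2.36), Mrps36 (2.12) and Mrpl52 (2.06). Mrpl33 had 203, 105 and 104 TPM in TG ZT12, 120, 133 and 157 TPM in WT ZT12, 105, 124 and 129 TPM in TG ZT0, and 119, 77.6 and 135 TPM in WT ZT0. Its highest value came from TG ZT12 replicate 1 and its lowest from WT ZT0 replicate 2, the libraries that stood apart.

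**Figure D2:**
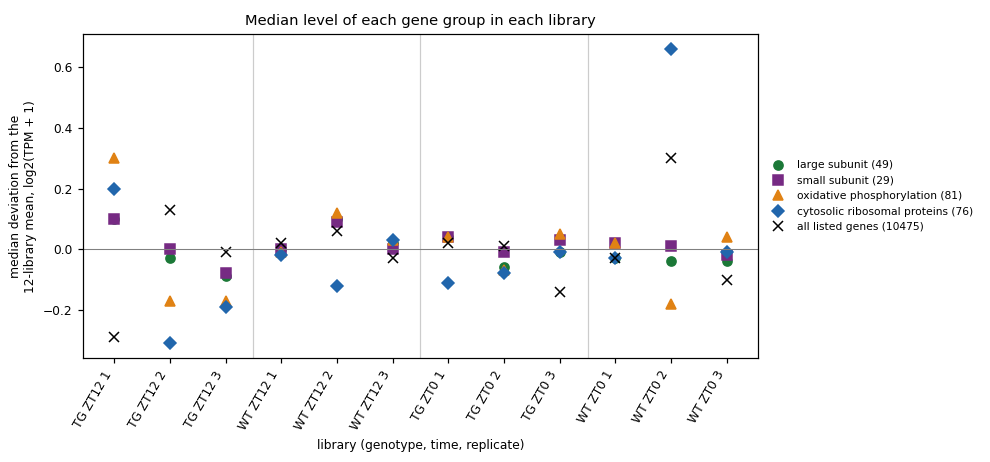
Median deviation of each gene group from the 12-library mean, in log2(TPM + 1), for each library, with grey lines between the groups. On this deposited scale both subunits of the mitochondrial ribosome stay between -0.09 and 0.10 in every library. Cytosolic ribosomal proteins reach 0.66 in WT ZT0 replicate 2, and the median listed gene runs from -0.29 to 0.30.

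On the deposited TPM scale, the libraries that stood apart moved other gene groups more than the members. Median-of-ratios scaling, a division by 1 factor per library, had its lowest factor in TG ZT12 replicate 1 (0.783). Its highest was in WT ZT0 replicate 2 (1.291). Deviations of the members after that scaling were not computed, so their steadiness here holds for the deposited scale only. In TG ZT12 replicate 1 the median member deviated by 0.10 (log2) from its mean over the libraries, the median oxidative phosphorylation subunit by 0.30 and the median listed gene by -0.29. In WT ZT0 replicate 2 the median member deviated by -0.02, the median cytosolic ribosomal protein by 0.66 and the median listed gene by 0.30. TG ZT12 replicate 1 still held the highest value of 32 of the 78 members and the highest member sum, 3047 TPM, beside 2529 and 2467 TPM in the other TG ZT12 libraries and 2467 to 2835 TPM in all other 11. Its deviations went with transcript length: the 35 members under 1000 bases had a median of 0.21 and the 43 longer ones a median of -0.02. Across members the Spearman rho of deviation with length was -0.46 in TG ZT12 replicate 1, 0.56 in TG ZT12 replicate 2 and 0.39 in WT ZT0 replicate 2, and across the 6131 genes that average at least 5 TPM it was -0.65, 0.57 and 0.24. The members did not follow the other genes in every library: rho was 0.08 for members against 0.42 for those genes in TG ZT12 replicate 3, and -0.19 against 0.20 in WT ZT12 replicate 1.

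**Figure D3:**
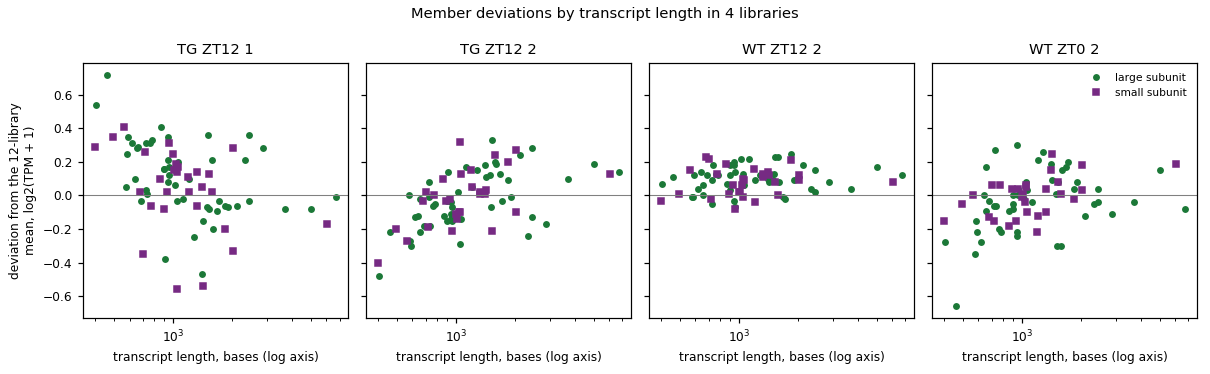
Deviation of each member from its 12-library mean, in log2(TPM + 1), against transcript length (log axis) in 4 libraries, with large and small subunit genes marked apart. Short members lie high in TG ZT12 replicate 1 (rho -0.46) and low in TG ZT12 replicate 2 (rho 0.56), whereas WT ZT12 replicate 2 shows little trend (rho 0.12).

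The first comparison asks whether E4BP4 overexpression in the liver goes with different levels of these transcripts in muscle. Taking both times together, TG and WT differed little. In 77 of 78 members the 95% interval of the difference lay within 1.5-fold in either direction, against 8700 of 10415 genes tested. Differences were taken in log2(TPM + 1), where the added 1 draws those of low members such as Mrpl23 towards 0. With limma, 0 of 78 members passed a Benjamini-Hochberg adjusted p of 0.05, where 0.0% of all tested genes were called. At an unadjusted p under 0.05 stood 2 members (2.56%), against 1.59% of all tested genes, and limma-voom, run on the whole reads described above, called 0 members, with 1 of 77 at an unadjusted p under 0.05, beside 208 of 10045 genes at that p and 0 called. The member log2 differences, TG minus WT, ran from -0.39 for Mrps36 to 0.17 for Mrps35. Their median was -0.02, beside -0.09 for all tested genes. A different scaling turned its sign: with median-of-ratios scaling, which moved the median of all tested genes to 0.00, it was 0.07. Members above 0 then numbered 74 of 78 in place of 29. All tested genes above 0 numbered 5115 of 10409 in place of 1689 of 10415. Both subunits moved alike, with medians of -0.02 (large) and -0.03 (small) as deposited, and 0.07 and 0.07 with that scaling. With both libraries that stood apart left out, the member median was -0.04, beside 0.03 for all tested genes. Below 0 were then 51 of 78 members and 3854 of 10397 genes.

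**Figure D4:**
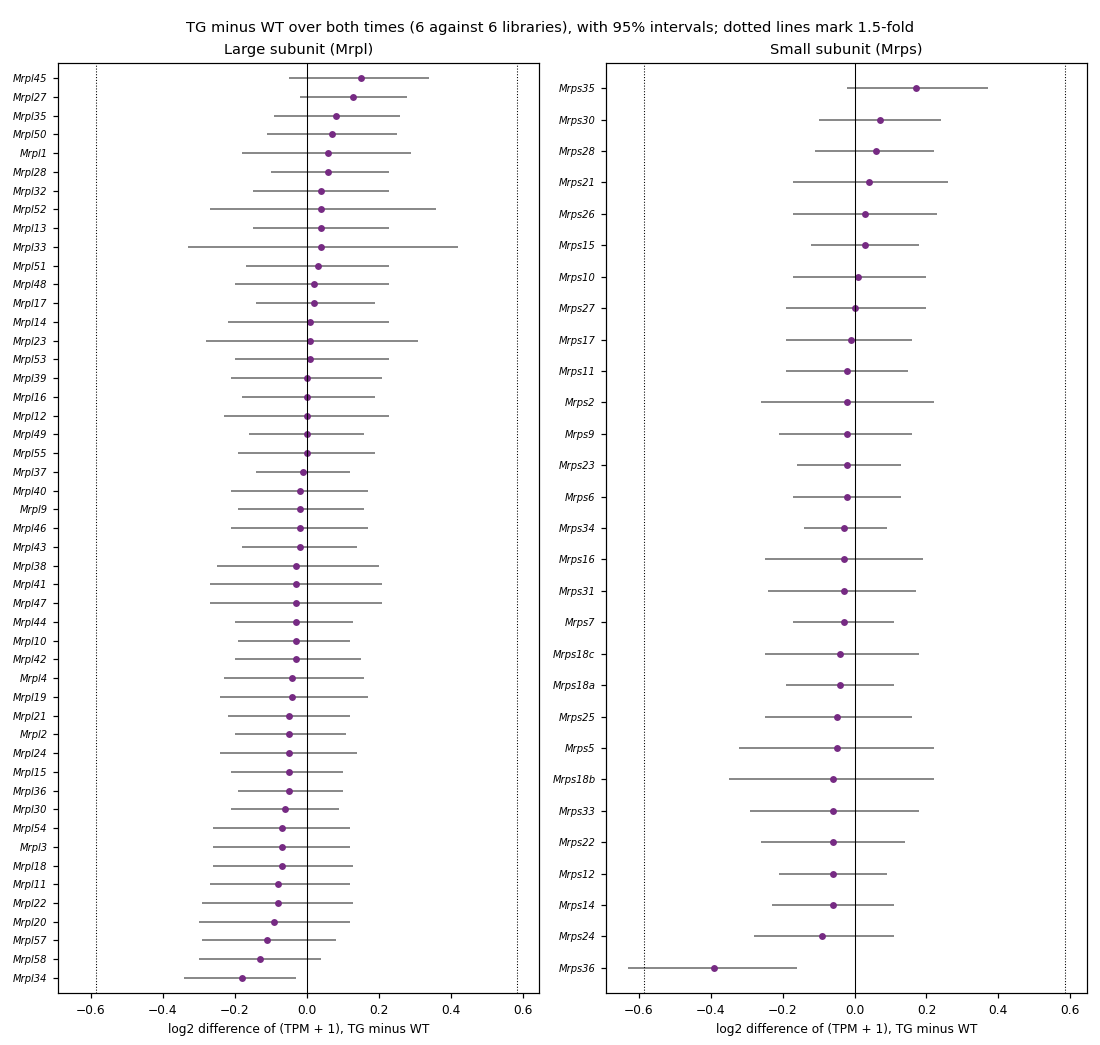
Log2 difference in (TPM + 1), TG minus WT over both times, of the 49 large subunit genes (left) and the 29 small subunit genes (right), with 95% intervals from limma (6 against 6 libraries) and dotted lines at 1.5-fold. Mrps36 at the bottom right, at -0.39, is the only member whose interval crosses a dotted line.

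Mrps36 came first by p in this comparison. It is encoded on chromosome 13 (100735955 to 100744659, minus strand, mm10). Its values were 1.72, 2.52 and 1.56 TPM in TG ZT12, against 3.19, 3.04 and 2.80 TPM in WT ZT12, and 1.82, 2.44 and 2.23 TPM in TG ZT0, against 2.92, 2.62 and 3.30 TPM in WT ZT0. All 6 TG libraries lay below all 6 WT libraries, although the highest TG value, 2.52 TPM, came close to the lowest WT value, 2.62 TPM. Of 10415 tested genes, 4 (0.0384%) had all TG libraries below all WT libraries, and none the reverse. How many would do so by chance was not tested. As given above, no listed gene was below 1.0 TPM in WT ZT0 replicate 1. Low genes that were higher in TG may therefore be missing from these counts. Over both times the means were 2.05 ± 0.403 TPM in TG and 2.98 ± 0.251 TPM in WT (SD, n = 6 each). At such low levels the added 1 of log2(TPM + 1) draws a difference towards 0. The log2 difference was -0.39 (SE 0.11, limma's unadjusted p = 0.00334) and missed the call with limma's adjusted p at 0.929. It was -0.46 (SE 0.16) at ZT12 and -0.32 (SE 0.16) at ZT0. Over the 21 alternatives that held the gene the difference ran from -0.54 to -0.18, with an unadjusted p under 0.05 in all 21 and a smallest limma adjusted p of 0.636. With both libraries that stood apart left out it was -0.40. The gene rests on 16 to 53 reads per library, has the 4 near-identical copies given above, and had the lowest level of the small subunit genes.

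**Figure D5:**
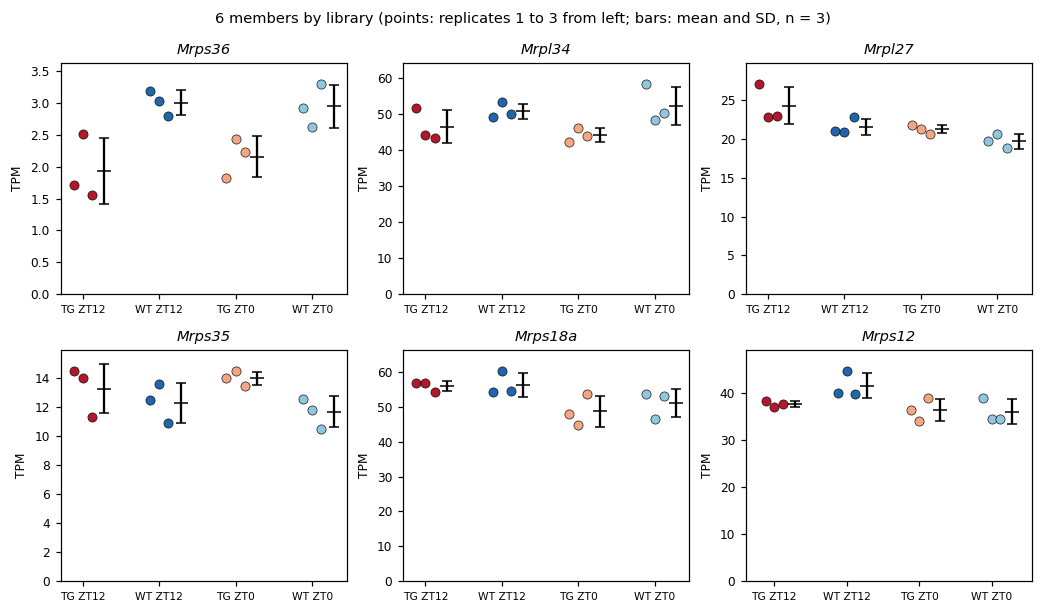
TPM per library of 6 members that were among the 3 of smallest p in at least 1 comparison, with the replicates as points and the mean and SD (n = 3) beside them, from left to right TG ZT12, WT ZT12, TG ZT0 and WT ZT0. The 6 TG values of Mrps36 lie at 1.56 to 2.52 TPM, below the 6 WT values at 2.62 to 3.30 TPM, while in the other 5 panels TG and WT overlap over the 2 times.

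Mrpl34, a small rRNA-binding protein of the large subunit, came second. It had 51.8, 44.2 and 43.5 TPM in TG ZT12, against 49.2, 53.3 and 50 TPM in WT ZT12, and 42.3, 46.3 and 43.9 TPM in TG ZT0, against 58.4, 48.4 and 50.3 TPM in WT ZT0. The groups were apart at ZT0 and overlapped at ZT12, where TG ZT12 replicate 1 lay among the WT libraries. The log2 difference over both times was -0.18 (SE 0.07), with limma's adjusted p at 0.929, and was -0.25 with both libraries that stood apart left out. Over the 22 alternatives it ran from -0.25 to -0.08, with an unadjusted p under 0.05 in 14 of them. Mrpl27, a protein near the peptidyl transferase centre, lay on the other side. It had 27.1, 22.9 and 23 TPM in TG ZT12, against 21, 20.9 and 22.8 TPM in WT ZT12, and 21.8, 21.3 and 20.7 TPM in TG ZT0, against 19.8, 20.7 and 18.8 TPM in WT ZT0. TG lay above WT at each time by a narrow margin, with a log2 difference over both times of 0.13 (SE 0.07, limma's adjusted p 0.929). Its processed pseudogene and its exon overlap with Eme1 on the opposite strand leave the level uncertain.

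At ZT12 alone 0 of 78 members were called, where limma called 0.0% of all tested genes, and 1 member, Mrps36, had an unadjusted p under 0.05 (0.951% of all tested genes did; limma-voom had 1 member of 77 and 184 of 10045 genes). Log2 differences ran from -0.46 for Mrps36 to 0.16 for Mrpl27 and for Mrpl45, the protein by which the particle is held at the inner membrane. The median was -0.05, beside -0.07 for all tested genes. Above 0 were 20 of 78 members and 2441 of 10415 genes. With median-of-ratios scaling the median was 0.04, beside 0.00 for all tested genes, and 61 members and 5271 of 10409 genes were above 0. TG lay above WT without overlap in 1 member, Mrpl27 (0.528% of all tested genes did), and below it in 2, Mrps36 and Mrps12 (4.26%). Mrps12, a protein of the decoding centre, had 38.3, 36.9 and 37.6 TPM in TG ZT12, against 40.0, 44.6 and 39.8 TPM in WT ZT12. Its log2 difference was -0.14 (SE 0.10, unadjusted p = 0.190, limma's adjusted p 1.00). Mrpl30 differed by -0.17 (SE 0.10), with overlapping groups.

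At ZT0 alone 0 of 78 members were called, where limma called 0.0% of all tested genes, and 1 member, Mrpl34, had an unadjusted p under 0.05 (1.12% of all tested genes did; limma-voom had 0 members of 77 and 120 of 10045 genes). The median was 0.01, beside -0.10 for all tested genes. It was 0.12 with median-of-ratios scaling, beside 0.00 for all tested genes. Members above 0 numbered 46 of 78 as deposited and 69 with that scaling. All tested genes above 0 numbered 2451 of 10415 and 5136 of 10409. TG lay above WT without overlap in 5 members (1.4% of all tested genes did), namely Mrpl13, Mrpl27, Mrpl35, Mrps15 and Mrps35, and below it in 3 (3.22%), namely Mrpl34, Mrps14 and Mrps36. Of these, Mrps35, a small subunit protein with no bacterial relative, had the largest positive difference. It had 14.0, 14.5 and 13.5 TPM in TG ZT0, against 12.6, 11.8 and 10.5 TPM in WT ZT0. The log2 difference was 0.25 (SE 0.13, unadjusted p = 0.0797, limma's adjusted p 0.998), while at ZT12 the groups overlapped and the difference was 0.09 (SE 0.13). Mrpl34 differed by -0.24 (SE 0.11) at ZT0 and by -0.13 (SE 0.11) at ZT12. For each of these genes the genotype difference was not shown to depend on time.

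In the authors' deposited tables of TG over WT, 0 of 78 members had a p under 0.05 at either time. Of all listed genes, 5 at ZT0 and 4 at ZT12 did, so the lack among 78 members says little about them. The authors' smallest adjusted p of a member was 0.9999. The authors' log2 fold changes are drawn close to 0. At ZT12 they ran from -0.029 for Mrpl30 to 0.058 for Mrpl27 in the authors' deposited table, and at ZT0 from -0.051 for Mrpl34 to 0.091 for Mrpl14. Mrps36 had -0.026 (p = 0.499) at ZT12 and -0.014 (p = 0.791) at ZT0 in the authors' deposited table.

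The next comparison asks whether these transcripts differ between lights off (ZT12) and lights on (ZT0). Over both genotypes limma called 106 genes (1.02% of those tested), 42 higher and 64 lower at ZT12, and 0 of 78 members. At an unadjusted p under 0.05 stood 2 members (2.56%), against 7.35% of all tested genes, and limma-voom had 0 of 77, beside 1075 of 10045 genes at that p and 211 called. The member log2 differences, ZT12 minus ZT0, had a median of 0.02, beside -0.03 for all tested genes, and 77 of 78 intervals lay within 1.5-fold. In comparison, the clock gene Nr1d1, the first of all genes by p, differed by 2.42. With median-of-ratios scaling the member median was 0.06, beside 0.00 for all tested genes. The 2 times also differed in depth and in red cell markers, as given above.

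Mrps18a came first among the members. It had 56.9, 56.8 and 54.3 TPM in TG ZT12, 54.3, 60.3 and 54.6 TPM in WT ZT12, 48.1, 44.7 and 53.6 TPM in TG ZT0, and 53.8, 46.7 and 53.1 TPM in WT ZT0. All 6 libraries of ZT12 lay above all 6 of ZT0, a pattern that 0.538% of all tested genes had in this direction and 1 of 78 members. The margin was narrow, from 54.3 TPM for the lowest ZT12 library to 53.8 TPM for the highest ZT0 library. The log2 difference was 0.17 (SE 0.07, unadjusted p = 0.0280, limma's adjusted p 0.526). Mrpl27 differed by 0.15 (SE 0.07, limma's adjusted p 0.665) and Mrps12 by 0.12 (SE 0.07, limma's adjusted p 0.838). No member lay below in all 6 libraries of ZT12 (0.989% of all tested genes did).

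Within WT, limma called 12 genes between ZT12 and ZT0 (0.115% of those tested) and 0 of 78 members, none of which had an unadjusted p under 0.05 (4.65% of all tested genes did; limma-voom had 0 members of 77 and 729 of 10045 genes). ZT12 lay above ZT0 without overlap in 7 members (5.62% of all tested genes did), Mrpl13, Mrpl14, Mrpl27, Mrpl46, Mrps12, Mrps16 and Mrps18a, and below it in 1, Mrps33 (5.2%). Mrpl13 had 49.6, 52.0 and 50.9 TPM in WT ZT12, against 45.0, 40.8 and 44.8 TPM in WT ZT0, a log2 difference of 0.22 (SE 0.13). Mrps12 had 40.0, 44.6 and 39.8 TPM in WT ZT12, against 39.0, 34.5 and 34.5 TPM in WT ZT0, a difference of 0.20 (SE 0.10). Mrpl14 differed by 0.23 (SE 0.15). The 3 genes missed the call, with limma's adjusted p at 1.00. Large subunit genes were above 0 in 37 of 49 cases with a median of 0.06, and small subunit genes in 13 of 29 with a median of -0.01, beside 4141 of 10415 tested genes and a median of -0.05. With median-of-ratios scaling the subunits were above 0 in 46 of 49 and 25 of 29 cases, with medians of 0.09 and 0.04, beside 5147 of 10409 genes and a median of 0.00, so the sign of the small subunit median depends on the scaling.

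Within TG, limma called 16 genes between ZT12 and ZT0 (0.154% of those tested) and 0 of 78 members, none of which had an unadjusted p under 0.05 (3.53% of all tested genes did; limma-voom had 0 members of 77 and 496 of 10045 genes). The member median was 0.00, beside -0.01 for all tested genes. Above 0 were 37 of 78 members and 4864 of 10415 genes. The direction of the member median turned on single libraries, from -0.05 when TG ZT12 replicate 1 was left out to 0.05 when TG ZT12 replicate 3 was. With both libraries that stood apart left out it was -0.05, beside 0.10 for all tested genes. Below 0 were then 50 of 78 members and 3129 of 10397 genes. ZT12 lay above ZT0 without overlap in 2 members (3.21% of all tested genes did), Mrpl27 and Mrps18a, with log2 differences of 0.18 and 0.20 (SE 0.10 each), and below it in 1, Mrps34 (3.87%). Mrps34 had 51.6, 53.5 and 52.1 TPM in TG ZT12, against 56.1, 56.2 and 54.5 TPM in TG ZT0, a log2 difference of -0.08 (SE 0.08). The smallest limma adjusted p of any member in this comparison was 1.00.

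The difference between TG and WT was also compared between the times, as an interaction (the genotype difference at ZT12 minus that at ZT0). Limma called 0 of 78 members and 0.0% of all tested genes, and 0 members had an unadjusted p under 0.05 (0.663% of all tested genes did; limma-voom had 0 members of 77 and 107 of 10045 genes). The median was -0.04, beside 0.03 for all tested genes. Below 0 were 53 of 78 members and 4457 of 10415 genes. The member median was -0.06 with median-of-ratios scaling (58 below 0) and -0.10 with upper-quartile scaling (64 below 0). All tested genes had medians of 0.01 and -0.02 there. With both libraries that stood apart left out it was -0.08 for the members, beside 0.01. Over single libraries the member median lay between -0.09 (TG ZT12 replicate 1 left out) and -0.01 (TG ZT12 replicate 3 left out). Intervals lay within 1.5-fold for 61 of 78 members and 2802 of 10415 tested genes (26.9%), and the median member's interval reached 0.40 (log2) to either side. Mrps15 came first by p, with an interaction of -0.23 (SE 0.13, limma's unadjusted p = 0.0967). It had 49.9, 48.5 and 45.2 TPM in TG ZT12, against 53.4, 51.4 and 47.5 TPM in WT ZT12, and 51.9, 49.5 and 53.7 TPM in TG ZT0, against 48.4, 44.0 and 47.0 TPM in WT ZT0. TG was above WT in all libraries of ZT0 and overlapped it at ZT12. Mrpl40 followed with -0.28 (SE 0.17) and Mrpl30 with -0.21 (SE 0.14). Limma's adjusted p was 1.00 for all 3 genes.

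Genes that work beside the mitochondrial ribosome were read from lists for comparison. The 5 further proteins of the particle that carry no Mrpl or Mrps number, Dap3, Ptcd3, Aurkaip1, Chchd1 and Gadd45gip1, had a median difference between TG and WT over both times of 0.02 and 0 calls. Chchd1 was the highest of them at 91.2 ± 21.7 TPM in TG ZT12, 89.6 ± 1.60 in WT ZT12, 86.1 ± 2.72 in TG ZT0 and 76.5 ± 12.5 in WT ZT0 (SD, n = 3 each). Of 32 genes for assembly of the particle and processing of its RNA, 21 translation factors and 21 mitochondrial aminoacyl-tRNA synthetases tested, limma called 0 in each of the 7 comparisons. Their median differences between TG and WT over both times were -0.04, -0.04 and -0.05, beside -0.02 for the members and -0.09 for all tested genes. Lars2, the mitochondrial leucyl-tRNA synthetase, had the smallest p of these lists over time. Its mean of 169 TPM was far above the median of 7.34 TPM for the synthetases, and the cause of that level was not tested. It had 209, 143 and 204 TPM in TG ZT12, 264, 206 and 234 TPM in WT ZT12, 113, 211 and 89.2 TPM in TG ZT0, and 133, 86.8 and 134 TPM in WT ZT0. Its groups were apart in WT and overlapped in TG, and ZT12 minus ZT0 over both genotypes was 0.76 (SE 0.20, limma's adjusted p 0.128).

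Genes of mitochondrial transcription and its nuclear regulators were low to moderate in level. Of these, 14 of 16 were tested, with 0 called in any comparison. Whether they act on the members here was not tested. Nrf1, which binds the NRF1 motif, averaged 3.06 TPM, Gabpa, which binds the ETS motif, 7.22 TPM, and Yy1 16.6 TPM over the 12 libraries. Esrra, a nuclear receptor of mitochondrial genes, had 37.2, 31.7 and 28.7 TPM in TG ZT0, against 62.9, 56.9 and 61.9 TPM in WT ZT0. Its ZT0 groups were apart, with a log2 difference of -0.88 (SE 0.28, limma's adjusted p 0.998). At ZT12 it had 28.6, 35.6 and 51.2 TPM in TG, against 60.7, 62.7 and 27.2 TPM in WT, and these overlapped, with a difference of -0.32 (SE 0.28). The interaction was 0.56 (SE 0.40, limma's adjusted p 1.00). Ppargc1b, a coactivator of that receptor, differed between ZT12 and ZT0 over both genotypes by 0.32 (SE 0.10, limma's adjusted p 0.259).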

How the data were processed

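Gene levels were read from 1 deposited table of TPM values, which the authors made from sequenced poly(A) RNA of 12 libraries. Per the submitters' processing notes the build was mm10 and the tools were HOMER 4.11.1, STAR, DESeq2 and bcl2fastq, with no role or order given. The same files hold the authors' log2 fold changes and p-values of TG over WT at each time, as deposited, which were used only as the authors' values. The library kit named in the labels does not mark strand.

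Levels were tested as log2(TPM + 1) for the 10415 of 10475 genes that reached 1 TPM in 3 or more libraries, with limma 3.58.1 (R 4.3.3, moderated with a trend) on means of the 4 groups, and with an additive model of genotype and time for the comparisons over both. P-values were adjusted by Benjamini-Hochberg over all tested genes at 0.05. No count test could be the main test on TPM values. Reads recovered from TPM and transcript length (99.80 to 100.00% of judged values were whole within 0.1 read) served for limma-voom. Alternatives were other scalings, filters and pseudocounts, a replicate block, only the groups compared, removal of the 10 highest genes and leaving out libraries. Copies were sought with BLAST+ 2.17.0 in GENCODE M21 transcripts. Figures were drawn with matplotlib 3.10.9.

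The members, the lists and the rule for naming single genes (the 3 members of smallest p in each comparison, the 3 highest and 3 lowest in level of each subunit, paralogs of 1 number, members with another known role, and the gene of smallest p in each other list) were chosen with earlier results of these data known. The grouping by origin and place in the particle was written after the values were seen. Other genes, among them the members without overlap between groups and the divergent pairs, were chosen after their values were seen. No protein sequences were used here.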

Additional observations from a re-analysis of the deposited data

How the results depend on the processing

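No member was called in any comparison under any alternative, and all 471 alternative values of the members of smallest p kept their direction and their side of the threshold. Scaling moved the member median of TG minus WT. With median-of-ratios and upper-quartile scaling it was 0.12 and 0.13 at ZT0 (0.01 as deposited), 0.04 and 0.02 at ZT12 (-0.05) and 0.07 and 0.07 over both times (-0.02). Leaving out single libraries gave -0.01 to 0.03, -0.09 to 0.00 and -0.04 to 0.00. Leaving out WT ZT0 replicate 2 and TG ZT12 replicate 1 together, chosen after seeing the data, gave medians of 0.01, -0.09 and -0.04. The medians of all tested genes then turned to 0.02, 0.04 and 0.03, from -0.10, -0.07 and -0.09 as deposited. Whether the members lay above or below all tested genes therefore depended on these libraries. Over time, single leave-outs gave -0.05 to 0.05 in TG, 0.01 to 0.06 in WT and 0.00 to 0.04 over both genotypes. Without both libraries the medians over time were -0.05, 0.05 and 0.00, beside 0.10, 0.08 and 0.09 for all tested genes. The cause was not tested.

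Calls over all genes moved more. Between ZT12 and ZT0 in TG (16 genes) they numbered 31 (median-of-ratios), 29 (upper quartile), 10 (only the groups compared), 27 (limma-voom) and 71 (without both libraries), and 6 (without TG ZT0 replicate 2) to 21 (without WT ZT0 replicate 2) over single libraries. In WT (12 genes) they numbered 55, 47, 24 (without the 10 highest genes), 54 and 72, and 4 (without WT ZT0 replicate 1) to 35 (without TG ZT12 replicate 1). Over both genotypes (42 higher, 64 lower) they numbered 234 (107 higher, 127 lower), 220, 211 and 464 (365 higher, 99 lower), and 70 (without WT ZT12 replicate 2) to 160 (without TG ZT12 replicate 1). Between TG and WT they numbered 1 at ZT0 with only the groups compared, 2 at ZT12 without both libraries, and 0 to 1 at ZT0 over single libraries.

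Deviations of libraries with the same replicate number had a median correlation of 0.06 over 18 pairs, from -0.35 to 0.29. For different numbers it was -0.02 over 36 pairs, from -0.47 to 0.5. The red cell markers at ZT12 followed the replicate number in both genotypes, as given above, but at ZT0 they did not. Whether the numbers mark pairs or batches was not tested further. A replicate block gave 18, 15 and 130 calls over time in TG, WT and both, and 0 members. Depth limits Mrpl23 and Mrps36, with 8 to 24 and 16 to 53 reads per library.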
